A study of Mus musculus with 19 samples.

Results

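The pyruvate dehydrogenase complex was described here through 10 mouse genes, which are 4 of its subunits (Pdha1, Pdhb, Dlat, Pdhx), its 4 kinases (Pdk1, Pdk2, Pdk3, Pdk4) and 2 phosphatases (Pdp1, Pdp2). They were taken by gene symbol from a table of 24348 genes, and all 10 passed the filter on low counts that left 16015 genes for testing. RNA came from whole perigonadal adipose tissue, the fat pad beside the gonads, of C57BL/6 mice in 19 poly-A libraries. Mice had a diet of HFD 60% (a high-fat diet) or Ensure, and were taken at their peak weight, either fed or deprived of food for 24 hours. With HFD there were 4 fed and 4 fasted libraries, and with Ensure 6 fed and 5 fasted, each called below by its group and its title's number. No label gives age, sex or an untreated lean group. None states that libraries come from different animals, and the p-values then cover only variation among these libraries, which may be technical.

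The complex sits in the mitochondrial matrix and turns pyruvate from glycolysis into acetyl-CoA, a step that mammals cannot reverse. Pdha1 and Pdhb encode the subunits of its decarboxylating component, Dlat the lipoyl-bearing acetyltransferase that forms the core, and Pdhx the protein that tethers the dehydrogenase Dld to that core. The kinases phosphorylate the Pdha1 product and switch the complex off, and the phosphatases switch it back on. In fat cells, acetyl-CoA made this way leaves the mitochondrion as citrate and feeds fatty acid synthesis. Pdk4 is a long-known fasting gene of muscle, heart and other tissues. RNA levels were measured, not phosphorylation or enzyme activity.

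Upstream sequences are shown for the kinase Pdk4, which rose most after fasting with Ensure, and for the subunits Pdhb, Dlat and Pdhx, which fell with Ensure. They are the 250 bases before the start of each gene in RefSeq, build GRCm38.p6, and all lie on the minus strand: Pdk4 at chr6:5496279-5496528, Pdhb at chr14:8172993-8173242, Dlat at chr9:50659781-50660030 and Pdhx at chr2:103073514-103073763. Capitals mark GGGCGG (reverse CCGCCC), the letters of a GC box, and CCAAT (reverse ATTGG).
Pdk4: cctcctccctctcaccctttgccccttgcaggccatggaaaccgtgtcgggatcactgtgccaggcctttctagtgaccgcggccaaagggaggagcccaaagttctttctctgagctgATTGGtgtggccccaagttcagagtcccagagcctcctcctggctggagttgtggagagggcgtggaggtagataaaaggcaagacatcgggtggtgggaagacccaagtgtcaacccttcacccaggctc
Pdhb: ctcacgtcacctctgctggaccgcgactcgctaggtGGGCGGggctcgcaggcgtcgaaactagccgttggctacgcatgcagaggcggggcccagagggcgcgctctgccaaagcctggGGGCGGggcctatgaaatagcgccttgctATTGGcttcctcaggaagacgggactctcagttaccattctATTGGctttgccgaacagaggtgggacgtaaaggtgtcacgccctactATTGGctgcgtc
Dlat: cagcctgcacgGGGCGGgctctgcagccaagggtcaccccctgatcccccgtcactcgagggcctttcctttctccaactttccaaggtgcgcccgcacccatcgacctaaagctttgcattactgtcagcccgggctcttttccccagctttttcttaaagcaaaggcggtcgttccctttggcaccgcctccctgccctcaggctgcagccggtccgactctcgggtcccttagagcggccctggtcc
Pdhx: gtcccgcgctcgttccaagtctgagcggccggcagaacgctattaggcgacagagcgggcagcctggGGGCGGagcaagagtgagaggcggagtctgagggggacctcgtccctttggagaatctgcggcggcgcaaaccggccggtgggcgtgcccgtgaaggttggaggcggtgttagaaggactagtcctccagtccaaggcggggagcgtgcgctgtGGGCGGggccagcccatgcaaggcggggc
All 3 subunit sequences held GGGCGG, and the Pdk4 sequence held a CCAAT and no GGGCGG. Across the 9 members with a sequence in the table, 6 held GGGCGG, against 32.7% of all promoters of this length, and 5 held CCAAT, against 33.8%. A gene was counted if any of its starts held the motif, whereas the shares are per promoter. Pdk1 and Pdk2 each had a further start that held neither motif, so the gene counts and the shares are not on the same basis. None of TATAAA (reverse TTTATA; 12.4% of all promoters), AGGTCA (reverse TGACCT; 14.0%) and TAAACA (reverse TGTTTA; 12.0%) was in any of the 9. CACGTG, the same on both strands, was in Pdk2 and Pdp2 (6.02% of all promoters), and AGAACA (reverse TGTTCT; 16.1%) in Pdk1. None of the searched motifs contains another, and a match or its absence describes these letters in this window only.

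Libraries held 12.82 to 22.55 M gene counts, and members were counted between 90 and 11343 times per library. In males this fat pad borders the epididymis and testis, and 5 libraries carried a summed level of 14 epididymis and testis markers above 100 CPM (TMM-scaled counts per M counts): HFD fasted 24, Ensure fed 10 and 12, and Ensure fasted 2 and 5. In Ensure fasted 2 and 5 that sum was 1110 and 9640 CPM, and the summed level of 16 adipocyte markers was 31660 and 19190 CPM, against 39560 to 45320 CPM in the other 3 libraries of the group. Another 3 libraries (HFD fed 21, HFD fasted 26, Ensure fed 16) held the epithelial marker Cdh16 above 30 CPM. Leaving out all 8 kept HFD fed 22, 25 and 27, HFD fasted 23 and 28, Ensure fed 1, 9 and 18, and Ensure fasted 7, 8 and 17. HFD fasted 28 stood apart in another way, with 27.7% of its reads not unique (20.7 to 21.3% in the other 3) and a median absolute log2 difference of 0.456 from its group (0.205 to 0.287 in the others). All HFD libraries were in sequencing lane 7. Of the Ensure libraries, lane 5 held 1 fed and 4 fasted, lane 6 held 4 fed and 1 fasted, and lane 7 held fed 18. Feeding and lane were thus largely the same split with Ensure, and a comparison within lane 5 or 6 had 1 library on one side. In bulk tissue, fewer cells of a type and less RNA per cell cannot be told apart.

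In the Ensure mice, 3 of the 4 kinases were called higher and 3 of the 4 subunits lower after fasting. Pdk4, Pdk2, Pdk1 and the phosphatase Pdp1 rose, and Pdhx, Pdhb and Dlat fell. Thus 7 of the 10 members passed edgeR's quasi-likelihood test at an adjusted p under 0.05, against 20.3% of all tested genes (10.6% higher, 9.77% lower). In the HFD mice only Pdhx passed, 1 of 10 against 1.22% of all genes (0.187% higher, 1.03% lower). Feeding and lane were largely the same split with Ensure. With lane as a term the Ensure calls of Pdk1 (edgeR adjusted p = 0.221) and Pdp1 (0.279) ended. The other 5 held, against 260 genes higher and 500 lower of 16015. In the TMM-scaled CPM used throughout, fed and fasted libraries did not overlap for 6 members with Ensure, against 15.0% of all genes, and for 5 members with HFD, against 8.45%. The median log2 fold change over all tested genes was 0.11 with Ensure and 0.06 with HFD.

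**Figure D1:**
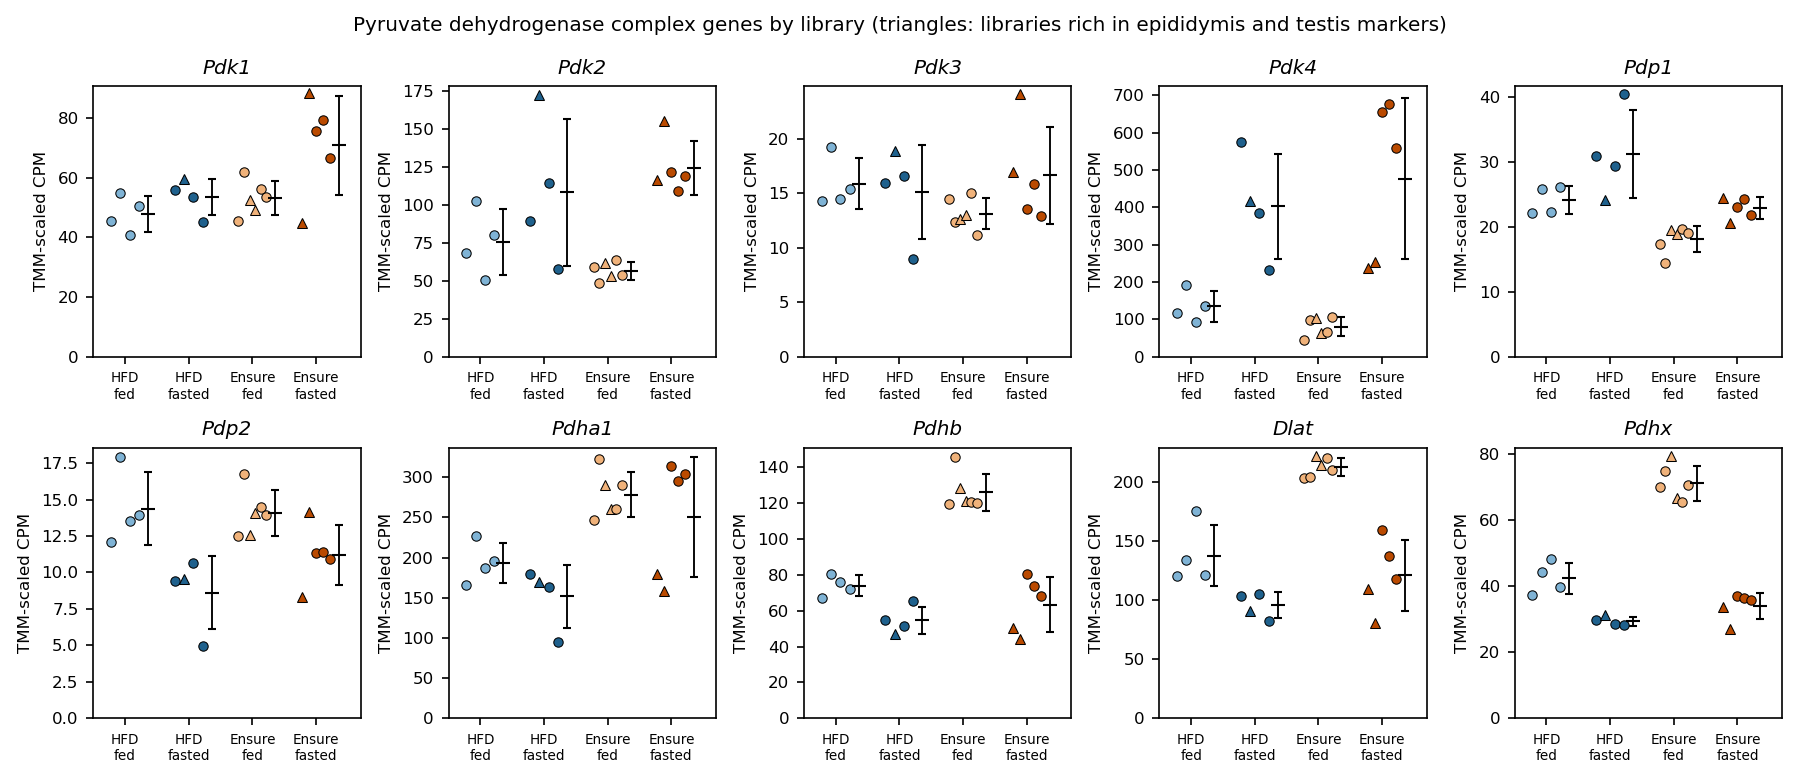
TMM-scaled CPM of each of the 10 genes (vertical axes, linear from 0) in every library of the 4 groups; bars are mean ± SD and triangles are the 5 libraries rich in epididymis and testis markers. Fed and fasted points are apart for Pdk4, Pdhb, Dlat and Pdhx with both diets, and the 2 Ensure fasted triangles lie lowest of their group for Pdk4, Pdha1, Pdhb, Dlat and Pdhx.

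Pdk4 was the member that changed most. With Ensure, fed libraries ran from 44.0 CPM over a median of 83.7 to 107 CPM, and fasted libraries 2, 5, 7, 8 and 17 held 238.5, 254.5, 657, 678 and 559 CPM. No fasted library came near the fed range, and among the fasted the 2 rich in tract markers were the low ones. The rise was 5.89-fold, a log2 fold change of 2.56 ± 0.33 (SE; 95% interval 1.86 to 3.26; edgeR adjusted p = 9.38e-05). It was 2.97 without the 5 tract-rich libraries (edgeR adjusted p = 0.00104), 3.38 within lane 5 (1 fed library, 4 fasted) and 2.74 within lane 6 (4 fed, 1 fasted).

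With HFD, Pdk4 stood at 117, 192, 93.7 and 137 CPM in fed libraries 21, 22, 25 and 27 and at 575.5, 416, 386.5 and 232 CPM in fasted libraries 23, 24, 26 and 28. Every fasted library was above every fed one, with the lowest fasted value in library 28. The log2 fold change of 1.58 ± 0.38 (95% interval 0.77 to 2.39) missed the threshold narrowly in edgeR (adjusted p = 0.0518), and passed with a stricter count filter (0.0392), with library size as the scaling (0.0293), in DESeq2 (0.00146) and in limma voom (0.00546). It was not called in the other 14 of 18 alternatives, where edgeR gave an adjusted p of 0.0507 to 0.215 (0.0741 with lane as a term). Leaving out any 1 library of these groups was among them. The difference between the 2 responses was 0.98 on the log2 scale (95% interval -0.07 to 2.02; edgeR adjusted p = 0.665), so a different size of response with the 2 diets was not shown.

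Set against the adipocyte marker sum of the same library, Pdk4 stood at 2.46 to 3.59 CPM per 1000 marker CPM in HFD fed and 9.16 to 15.8 in HFD fasted libraries. The same quantity was 1.12 to 2.60 in Ensure fed and 7.53 to 17.1 in Ensure fasted libraries. Fed and fasted ranges stayed apart on this scale too, and Ensure fasted 5, low in CPM, lay at 13.3 among the other fasted libraries.

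Pdk2, the kinase made in most tissues, was the other kinase with a clear rise in the Ensure mice. Its fed libraries lay between 48.5 and 63.5 CPM with a median of 56.2, and fasted libraries 2, 5, 7, 8 and 17 at 116.5, 155, 122, 109 and 119 CPM. The groups were apart, with library 5 the highest. The log2 fold change was 1.14 ± 0.21 (95% interval 0.68 to 1.59; edgeR adjusted p = 0.00164), and 1.09 and 1.07 within lanes 5 and 6. With HFD, fed libraries 21, 22, 25 and 27 held 68.5, 103, 50.7 and 79.9 CPM and fasted libraries 23, 24, 26 and 28 held 89.4, 172, 114 and 57.6 CPM. These groups overlapped widely, at a log2 difference of 0.52 (95% interval -0.01 to 1.05, edgeR adjusted p = 0.343). It was -0.10 when the 8 tract- or Cdh16-rich libraries were left out, which kept only fasted libraries 23 and 28. Without fasted 28 alone it was 0.76 (edgeR adjusted p = 0.131), and limma voom called it at 0.58 (adjusted p = 0.0184).

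Pdk1, known as a target of the hypoxia factor Hif1a, lay between 45.4 and 62.0 CPM (median 52.9) in Ensure fed libraries and at 44.6, 88.3, 75.5, 79.1 and 66.4 CPM in fasted libraries 2, 5, 7, 8 and 17. Library 2 lay below every fed library and the other 4 above them. The log2 fold change of 0.41 ± 0.14 (edgeR adjusted p = 0.0428) lost its call in 15 of 21 alternatives, among them leaving out any single Ensure library other than fasted 2 (adjusted p up to 0.166). With HFD, Pdk1 lay at 40.9 to 54.8 CPM fed and 45.1 to 59.5 CPM fasted, a log2 difference of 0.16 (95% interval -0.19 to 0.50; edgeR adjusted p = 0.668).

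Pdk3 had the lowest mean level per length of the kinases in every group. It ranged from 11.2 to 15.0 CPM in Ensure fed and from 12.9 to 24.1 CPM in Ensure fasted libraries, where the high value was library 5, and the log2 difference of 0.35 (95% interval -0.04 to 0.73) was not called (edgeR adjusted p = 0.177). With HFD it ranged from 14.3 to 19.3 CPM fed and from 8.98 to 18.9 CPM fasted, with library 28 the low one. That log2 difference of -0.07 (95% interval -0.52 to 0.38; edgeR adjusted p = 0.886) became 0.14 without library 28.

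The phosphatase Pdp1, a calcium-stimulated enzyme, lay between 14.4 and 19.6 CPM in Ensure fed libraries and at 24.5, 20.6, 23.1, 24.3 and 21.8 CPM in fasted libraries 2, 5, 7, 8 and 17. The groups were adjacent but apart. The log2 fold change was 0.33 ± 0.11 (edgeR adjusted p = 0.0483) and lost its call in 14 of 21 alternatives, including the loss of any single Ensure library other than fed 10 (adjusted p up to 0.142). With HFD, fasted libraries 23, 24, 26 and 28 held 30.9, 24.1, 29.3 and 40.4 CPM against 22.2 to 26.2 CPM fed, and the log2 difference of 0.37 (95% interval 0.09 to 0.65) was not called (edgeR adjusted p = 0.201).

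Pdp2, the other phosphatase, had lower mean levels after fasting with both diets and was not called by edgeR with either. With HFD, fed libraries lay at 12.1 to 17.9 CPM and fasted libraries 23, 24, 26 and 28 at 9.39, 9.56, 10.6 and 4.93 CPM. The groups were apart, with library 28 lowest, at a log2 difference of -0.74 (95% interval -1.17 to -0.30; edgeR adjusted p = 0.0935). DESeq2 (adjusted p = 0.0254), limma voom (0.0145) and the edgeR fit without the 8 tract- or Cdh16-rich libraries (-1.10, 0.0406) called it. That edgeR fit kept only fasted libraries 23 and 28, and without library 28 alone the difference was -0.51 (edgeR adjusted p = 0.168). With Ensure, 12.5 to 16.8 CPM fed stood against 8.33 to 14.1 CPM fasted, a log2 difference of -0.33 (95% interval -0.70 to 0.05; edgeR adjusted p = 0.189) that limma voom called (0.0143) and DESeq2 did not (0.159).

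**Figure D2:**
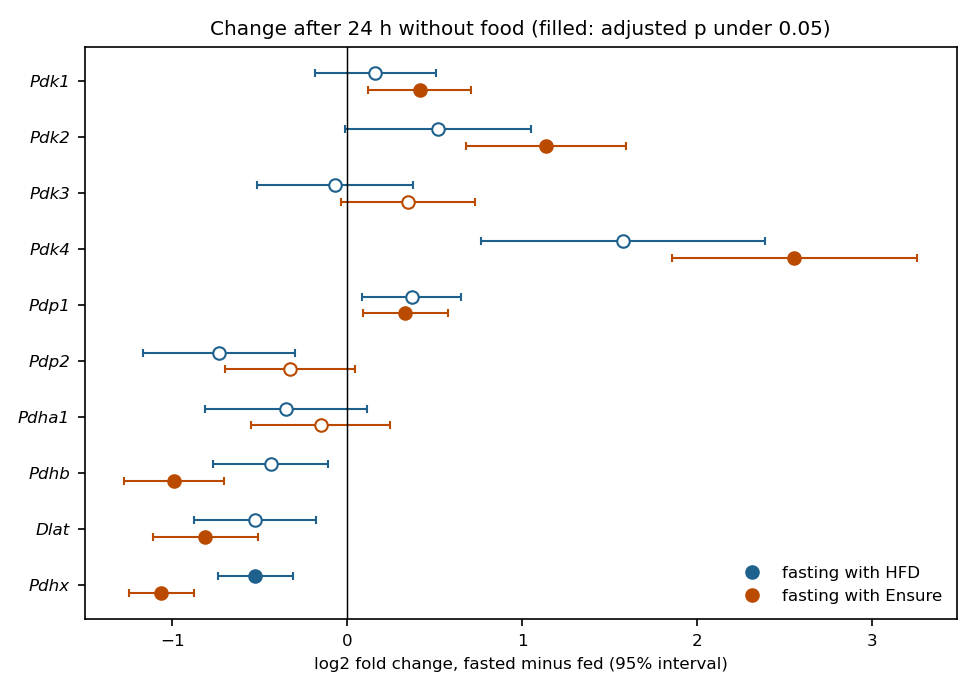
Log2 fold change from fed to fasted (horizontal axis) with its 95% interval for each member and diet, from the edgeR fit of all 19 libraries; filled points have an adjusted p under 0.05. With Ensure 4 members are filled on the right of 0 and 3 on the left, and with HFD Pdhx alone is filled, at -0.53.

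Pdhx was the member that edgeR called after fasting with both diets. DESeq2 also called Pdk4 and Dlat with both, and limma voom Pdk2, Pdk4, Pdp2 and Pdhb. Ensure fed libraries held 65.4 to 79.3 CPM (median 70.2), and fasted libraries 2, 5, 7, 8 and 17 held 33.7, 27.0, 37.1, 36.3 and 35.7 CPM. The fasted level was 0.478 of the fed one, a log2 fold change of -1.07 ± 0.09 (95% interval -1.25 to -0.88; edgeR adjusted p = 3.4e-06). It was -0.96 without the 5 tract-rich libraries (adjusted p = 0.000406), and -1.06 and -1.001 within lanes 5 and 6. With HFD, fed libraries 21, 22, 25 and 27 held 37.4, 44.2, 48.1 and 39.6 CPM and fasted libraries 23, 24, 26 and 28 held 29.6, 31.2, 28.4 and 28.3 CPM. The groups were apart, at a log2 fold change of -0.53 ± 0.10 (95% interval -0.74 to -0.31; edgeR adjusted p = 0.0204). That HFD call ended without fed library 22 (adjusted p = 0.058), fed 25 (0.0863), fasted 23 (0.0547) or fasted 28 (0.0533), with the log2 fold change between -0.51 and -0.46.

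Pdhb lay between 119.5 and 146 CPM in Ensure fed libraries (median 121) and at 50.3, 44.4, 80.6, 73.6 and 68.0 CPM in fasted libraries 2, 5, 7, 8 and 17. Libraries 2 and 5 were the low ones, and the highest fasted value was well under the lowest fed one. The log2 fold change was -0.99 ± 0.13 (95% interval -1.28 to -0.70; edgeR adjusted p = 0.000127), -0.79 without the 5 tract-rich libraries (adjusted p = 0.00239), and -0.94 and -0.92 within lanes 5 and 6. With HFD, fed libraries held 66.9, 80.5, 76.2 and 72.3 CPM and fasted ones 54.7, 47.2, 51.3 and 65.1 CPM, in the order of their numbers. The groups nearly touched at library 28, and the log2 difference of -0.44 (95% interval -0.77 to -0.11) was not called (edgeR adjusted p = 0.193).

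Dlat lay between 204 and 222 CPM (median 213) in Ensure fed libraries and at 109, 80.7, 160, 138 and 118 CPM in fasted libraries 2, 5, 7, 8 and 17. Fed libraries differed little among themselves, and every fasted one was lower. The log2 fold change was -0.81 ± 0.14 (95% interval -1.11 to -0.51; edgeR adjusted p = 0.000906), -0.74 and -0.87 within lanes 5 and 6, and -0.60 without the 8 tract- or Cdh16-rich libraries, where the call ended (adjusted p = 0.0636). With HFD, 120, 134, 176 and 122 CPM in fed libraries 21, 22, 25 and 27 stood against 104, 90.7, 106 and 82.5 CPM in fasted libraries 23, 24, 26 and 28. These too were apart, at a log2 difference of -0.53 (95% interval -0.87 to -0.18) that was not called (edgeR adjusted p = 0.137).

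Pdha1, the subunit that the kinases phosphorylate, was not called after fasting with either diet. In Ensure fed libraries it lay between 247 and 323 CPM (median 275), and in fasted libraries 2, 5, 7, 8 and 17 at 180, 159, 314, 296 and 304.5 CPM. Libraries 7, 8 and 17 lay within the fed range and the tract-rich libraries 2 and 5 below it. The log2 difference was -0.15 (95% interval -0.55 to 0.24; edgeR adjusted p = 0.584), and 0.11 without the 5 tract-rich libraries. With HFD, 166, 226, 187 and 195 CPM in fed libraries 21, 22, 25 and 27 stood against 179, 170, 163 and 94.5 CPM in fasted libraries 23, 24, 26 and 28, a log2 difference of -0.35 (95% interval -0.82 to 0.11; edgeR adjusted p = 0.465). Pdha1 shares 21.2% of its exon bases with Map3k15 on the opposite strand, and whether strand was used in counting is not given, so its values are uncertain. Map3k15 itself lay between 3.05 and 7.81 CPM.

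Some other genes belong to the complex or its control and are given for context. Dld, the shared dehydrogenase component, fell after fasting with Ensure, from 286 ± 18.6 to 182 ± 52.4 CPM (log2 fold change -0.65 ± 0.15; edgeR adjusted p = 0.00608), a call lost once lane was a term or the tract-rich libraries were dropped. Pdpr, the regulatory subunit of the phosphatase, was 31.8 ± 2.09 CPM in Ensure fed and 25.2 ± 2.22 CPM in Ensure fasted libraries (log2 difference -0.33; edgeR adjusted p = 0.34), and in HFD fasted 28 it stood at 6.79 CPM against 29.1 to 31.3 CPM in that library's group. Pdha2, the testis form of Pdha1, was highest in tract-rich libraries, with 8.96 CPM in Ensure fasted 2, 4.69 in HFD fasted 24 and 1.499 in Ensure fasted 5, and lay at or below 0.829 CPM elsewhere.

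Per kilobase of exon, the scale on which genes can be compared, the Ensure fed group was led by Pdha1 at 97.8 ± 9.87 CPM per kb (SD, n = 6) and Pdhb at 83.2 ± 6.80, whose libraries overlapped. Dlat followed at 52.8 ± 1.93 CPM per kb. Pdhx at 28.4 ± 2.08, Pdk2 at 25.2 ± 2.55 and Pdk4 at 23.3 ± 7.48 CPM per kb overlapped their neighbours in that order. Below them Pdk1 at 10.2 ± 1.11, Pdk3 at 6.20 ± 0.67, Pdp1 at 4.19 ± 0.46 and Pdp2 at 2.47 ± 0.28 CPM per kb did not overlap. After fasting with Ensure the order changed at the top, with Pdk4 at 137 ± 61.9 CPM per kb (SD, n = 5) above Pdha1 at 88.0 ± 26.3, again with overlap, then Pdk2 at 55.4 ± 7.93, Pdhb at 41.9 ± 10.2 and Dlat at 30.02 ± 7.38.

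Within a library, Pdk4 made up 35.2 ± 8.22% of the summed kinase level per kb in Ensure fed (n = 6) and 61.3 ± 13.9% in Ensure fasted libraries (n = 5). Fed values ran from 23.2 to 43.8%. Fasted values were 42.8 and 49.99% in libraries 5 and 2 and 69.1 to 73.2% in the other 3. The groups overlapped, since Ensure fed 18, at 43.8%, lay above Ensure fasted 5. In HFD fed Pdk4 made up 43.1 ± 1.82% and in HFD fasted 63.6 ± 7.78% (n = 4 each). The summed kinases over the summed phosphatases stood at 9.75 ± 1.07 in Ensure fed and 29.5 ± 7.57 in Ensure fasted libraries, and at 10.9 ± 1.94 and 21.6 ± 8.39 with HFD. HFD fasted 28, at 10.3, was the fasted library inside the fed range of that ratio. With Pdk4 left out, the ratio was 6.26 ± 0.42 in Ensure fed and 10.6 ± 1.65 in Ensure fasted libraries. With HFD it was then 6.18 ± 0.92 fed and 7.95 ± 4.03 fasted, and these groups overlapped.

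Ratios between subunits were taken in the same way. Pdhb over Pdha1, per kb, was 0.777 to 0.911 in Ensure fed and 0.421 to 0.527 in Ensure fasted libraries, so that the groups were apart. The tract-rich Ensure fasted 2 and 5 were the highest of the fasted group, both at 0.527. With HFD it was 0.670 to 0.768 fed and 0.574, 0.524, 0.592 and 1.297 in fasted libraries 23, 24, 26 and 28, with library 28 far above all others and group means of 0.724 and 0.747. Pdhx over Dlat overlapped between fed and fasted libraries with both diets, at group means from 0.464 to 0.538. These ratios were not tested.

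**Figure D3:**
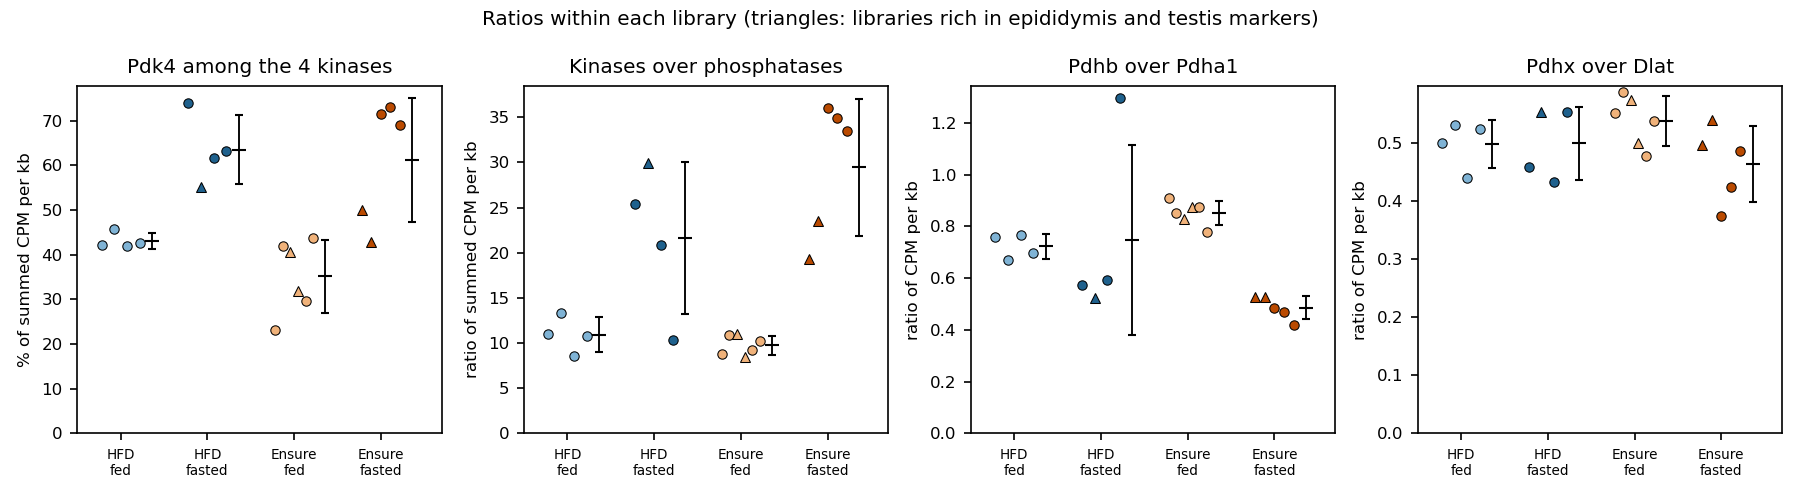
Within-library ratios of levels per kilobase (vertical axes, linear from 0) in the 4 groups, with mean ± SD; triangles are the 5 libraries rich in epididymis and testis markers. Pdhb over Pdha1 is 0.777 to 0.911 in Ensure fed and 0.421 to 0.527 in Ensure fasted libraries, and HFD fasted 28 stands alone at 1.297.

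The difference between the fasting responses with the 2 diets was tested directly and called no member and 0% of all genes in edgeR. At an unadjusted p under 0.05 there were 2 of 10 members, against 7.71% of all genes (1234). Those members were Pdhx, with a difference of -0.54 on the log2 scale (95% interval -0.82 to -0.26; adjusted p = 0.351), and Pdhb, with -0.55 (95% interval -0.98 to -0.12; adjusted p = 0.55). DESeq2 called 70 of 21146 genes and limma voom 1170 of 16015, each with Pdhx as the only member. For the other 9 members none of these tools called a difference between the diets.

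Among fed mice, the subunits that fell with fasting were the ones that were higher with Ensure. Pdhx (log2 fold change 0.75 ± 0.09; edgeR adjusted p = 0.000361), Pdhb (0.77 ± 0.14; 0.00638) and Dlat (0.63 ± 0.15; 0.026) were higher in Ensure fed than in HFD fed libraries, 3 of 10 members against 4.26% of all genes (2.09% higher, 2.17% lower). These comparisons share their fed libraries with the fasting ones above. The groups were apart for 5 members, these 3 with Pdha1 and Pdp1, against 13.3% of all genes. Pdha1 was 0.53 higher on the log2 scale (95% interval 0.10 to 0.95; edgeR adjusted p = 0.159) and Pdp1 was -0.41 (95% interval -0.67 to -0.15; 0.0631), neither of them called.

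Diet and lane were nearly the same split, since 5 of the 6 Ensure fed libraries were outside lane 7. With lane as a term the 3 log2 differences were 0.74, 0.70 and 0.61 for Pdhx, Pdhb and Dlat, and no member and 2 genes in all were called. Ensure fed 18, which shared lane 7 with the HFD libraries, held 70.5 CPM of Pdhx against 37.4 to 48.1 CPM in the 4 HFD fed libraries, 120.0 CPM of Pdhb against 66.9 to 80.5, and 211 CPM of Dlat against 120 to 176. For all 3 genes that library lay within the range of the other Ensure fed libraries. The Dlat call also ended without HFD fed 21, 22 or 27 or Ensure fed 10 or 12 (adjusted p from 0.05 to 0.0817).

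Among fasted mice no member was called between the diets, against 2.82% of all genes in edgeR (1.63% higher, 1.19% lower). At an unadjusted p under 0.05 in edgeR there were 5 of 10 members and 20.3% of all genes (3253). DESeq2 called 2 members (Pdp1 and Pdha1) and 1343 of 21146 genes, and limma voom 6 members and 3418 of 16015 genes. The groups overlapped for every member, against 3.99% of all genes that did not. Pdha1 had the largest difference, 0.72 on the log2 scale (95% interval 0.28 to 1.17; edgeR adjusted p = 0.0696), which was called without Ensure fasted 2 (0.79; adjusted p = 0.0445), without Ensure fasted 5 (0.82; 0.0208) and without all 5 tract-rich libraries (1.07; 0.0164). It was 0.53 (0.189) without HFD fasted 28, the library lowest in Pdha1. Pdk4 differed by 0.25 (95% interval -0.51 to 1.00; edgeR adjusted p = 0.745) and Pdhx by 0.21 (95% interval 0.0049 to 0.41; 0.23).

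The pathways around the complex were read from 6 gene lists, whose genes were picked with earlier results of these data known. Counts are read against 10.6% of all genes higher and 9.77% lower, and medians against 0.11 over all genes. In the citric acid cycle, which burns the acetyl-CoA, 8 of 17 tested genes fell after fasting with Ensure and none rose, with a median log2 fold change of -0.26. They included the citrate synthase Cs (-0.84 ± 0.11; edgeR adjusted p = 8.74e-05), the lipoyl-bearing succinyltransferase Dlst (-0.46; 0.000247), the malate dehydrogenase Mdh2 (-0.52; 0.000579) and the isocitrate dehydrogenase subunit Idh3a (-1.04; 0.00109). In the export of citrate and the use of acetyl-CoA, 4 of 7 fell and none rose, with a median of -0.98. These were Acly, which splits citrate in the cytosol (-1.89 ± 0.20; edgeR adjusted p = 2.38e-05), the acetyl-CoA synthetase Acss2 (-1.89; 0.000498), the fatty acid synthase Fasn (-1.70; 0.0018) and the citrate carrier Slc25a1 (-0.98; 0.0053).

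Of genes that bring pyruvate in or use it otherwise, 5 of 15 fell with Ensure and none rose, with a median of -0.21. The 4 with the smallest p were the alanine aminotransferases Gpt (-1.43 ± 0.18; edgeR adjusted p = 6.65e-05) and Gpt2 (-0.70; 0.00868), the mitochondrial pyruvate carrier subunit Mpc2 (-0.56; 0.0016) and the malic enzyme Me1 (-1.40; 0.00391). Pcx, the pyruvate carboxylase that competes for the same pyruvate, went from 1659 to 1208 CPM without a call (-0.46; edgeR adjusted p = 0.168). Among relatives of the complex that carry or make lipoyl groups, 2 of 11 rose and 2 fell: Gcsh (-0.53; edgeR adjusted p = 0.000493) and the lipoyl synthase Lias (-0.27; 0.0374) fell, and the glycine cleavage genes Amt (1.71; 0.0174) and Gldc (3.55; 0.0382) rose.

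Of 14 regulators that act on kinase genes, 2 rose and 3 fell with Ensure, with a median of -0.31. Hif1a fell (-1.03 ± 0.15; edgeR adjusted p = 0.000179), as did the nuclear receptors Esrra (-0.54; 0.0173) and Nr3c1, the glucocorticoid receptor (-0.45; 0.0413), while Foxo4 rose (0.50; 0.0121). Among known targets of PPAR, FoxO and the glucocorticoid receptor other than Pdk4, 7 of 16 rose and none fell, with a median of 0.72. They included the receptor cochaperone Fkbp5 (1.34 ± 0.22; edgeR adjusted p = 0.000594), Txnip, which restrains glucose uptake (0.97; 0.00108), and the clock gene Per1 (0.80; 0.00313).

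**Figure D4:**
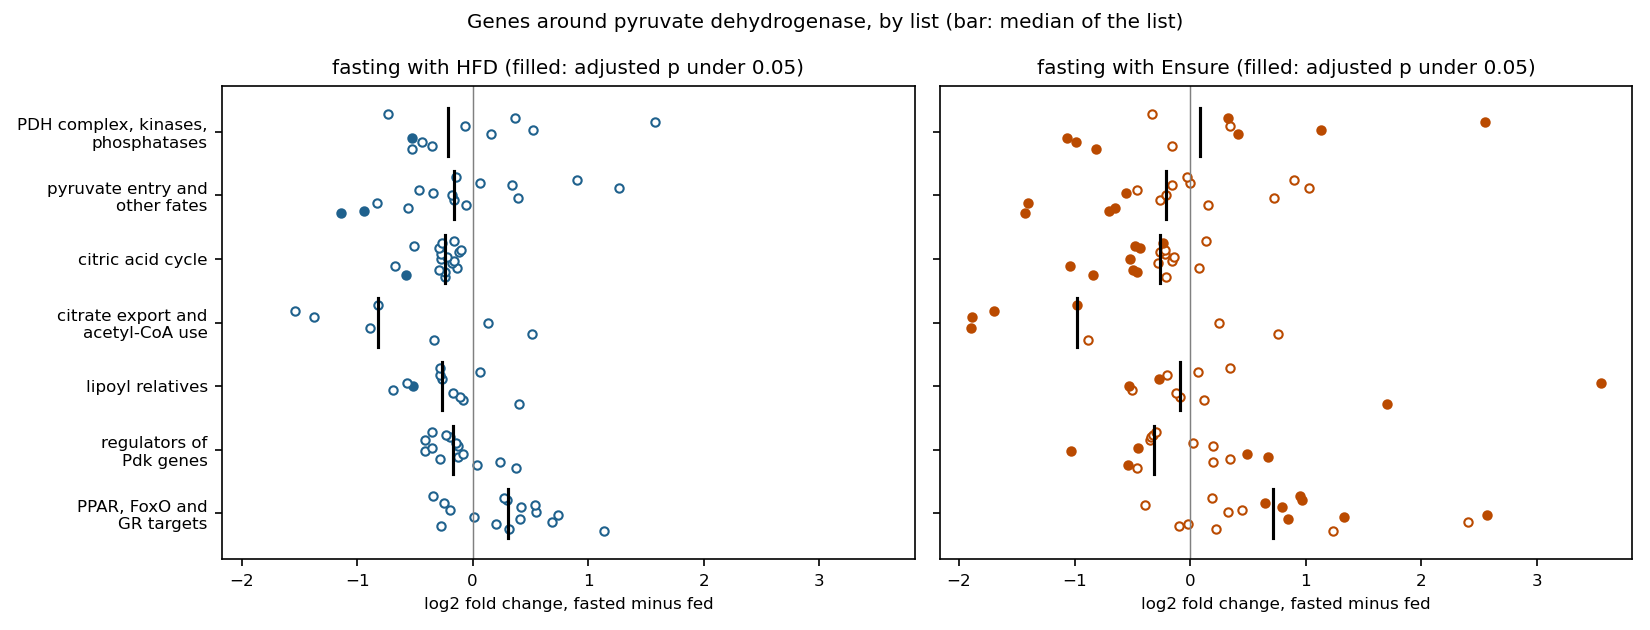
Log2 fold change from fed to fasted (horizontal axes) of every tested gene in the 10 members and 6 surrounding lists, with HFD on the left and Ensure on the right; filled points have an edgeR adjusted p under 0.05 and bars are list medians. With Ensure 8 of 17 citric acid cycle genes are filled left of 0 and 7 of 16 PPAR, FoxO and glucocorticoid receptor targets are filled right of 0.

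Without the 5 tract-rich libraries the counts with Ensure were 4 of 17 cycle genes, 4 of 7 export genes and 3 of 15 pyruvate genes lower and 5 of 16 targets higher, and with lane as a term they were 5, 3, 2 and 4. Calls over all genes fell too, to 503 higher and 642 lower of 15553 without these libraries. With lane they were 260 higher and 500 lower of 16015. The lipoyl relatives then had 0 genes higher and 1 lower under either setting, so that neither the Amt nor the Gldc call held. The regulators had 1 higher and 1 lower without the tract-rich libraries, and 0 higher and 1 lower with lane as a term. With HFD the same lists held few calls: Cs (-0.58 ± 0.12; edgeR adjusted p = 0.0289) in the cycle, Gpt (-1.14; 0.0151) and Gpt2 (-0.94; 0.0272) among pyruvate genes and Gcsh among the lipoyl relatives fell in edgeR over all 19 libraries, which called no regulator, export gene or target. With lane as a term, 0 cycle genes and 1 pyruvate gene were lower, against 52 of 16015 genes. The same 2 counts were found without HFD fasted 28, against 44 of 16406 genes. DESeq2 called 4 of 7 export genes and 4 of 17 cycle genes lower, against 472 of 21146 genes. Without the 5 tract-rich libraries 2 export genes, 2 cycle genes and 1 pyruvate gene were lower, against 125 of 15553 genes. Without the 8 tract- or Cdh16-rich libraries 5 export genes were lower and 1 target was higher, against 365 lower and 545 higher of 15257 genes. The list medians were -0.24 for the cycle, -0.81 for export and 0.31 for the targets. Between fed mice, 5 of 7 export genes were higher with Ensure and 1 was lower, and 3 of 15 pyruvate genes and 1 of 17 cycle genes were higher. Over all genes 2.09% were higher and 2.17% lower in that comparison. Diet and lane were nearly the same split there, and with lane as a term 2 genes in all were called. List counts between fed mice were not redone under any alternative.

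Markers of other cells moved beside these results. With Ensure, 9 of 10 smooth muscle markers rose after fasting and 3 of 7 brown adipocyte markers fell, against 10.6% of all genes higher and 9.77% lower. Smooth muscle sums overlapped, at 613 to 820 CPM fed (median 718) and 697 to 8791 CPM fasted (median 1064). Brown adipocyte sums were 44.7 to 79.2 CPM fed and 16.3 to 26.0 CPM fasted. Marker counts were not redone without the tract-rich libraries. Of 16 adipocyte markers 3 fell with Ensure, with summed levels of 39180 to 47470 CPM fed and 19190 to 45320 CPM fasted. Of 10 macrophage markers none was called. Skeletal muscle markers summed to 20.4 to 47.6 CPM in Ensure fed and 45.2 to 291 CPM in Ensure fasted libraries, and to 16.1 to 28.2 CPM in HFD fed and 37.8 to 75.6 CPM in HFD fasted libraries, where the groups were apart. Of the 6 tested, 1 (Acta1) rose with each diet. With HFD no gene of the other marker lists was called. The epididymis and testis markers, 11 of them tested, had no call with either diet. They summed to 12.2 to 645 CPM in Ensure fed and 26.3 to 9643 CPM in Ensure fasted libraries. With HFD these sums were 15.7 to 37.9 CPM fed and 13.4 to 309 CPM fasted. Every listed marker in the files but 1 of the tract list had counts in the Ensure fasted group, and adiponectin (Adipoq) was present at 1112 to 4138 CPM in all 19 libraries. The part of these cells in the falls of Pdhb, Dlat and Pdhx was not tested beyond the values without the tract-rich libraries, and the part of muscle RNA in the higher Pdk4 values was not tested.

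Across the 19 libraries, Pdhb, Dlat and Pdhx varied together, with Pearson r of 0.93 to 0.96 between pairs on log2(CPM + 1) and 0.63 to 0.76 for deviations from group means. Pdha1 also varied with Pdhb, Dlat and Pdhx, at r of 0.67, 0.75 and 0.66 over the libraries. For deviations from group means these values were 0.53, 0.68 and 0.65. Between Pdk4 and Pdha1, r was -0.12 over the libraries and 0.88 for deviations within groups. Both genes were low in HFD fasted 28 and in Ensure fasted 2 and 5. Pdk4 with Pdhb, Dlat and Pdhx had r of -0.68, -0.65 and -0.77 over the libraries. Within groups these were positive, at 0.55, 0.49 and 0.51. The genes most like Pdk4 were Inca1 (r = 0.93), Mafk (0.93), Rufy4 (0.92), Trib3 (0.91) and Acer2 (0.91), with r of within-group deviations from 0.74 to 0.82. Those most like Pdha1 were Jmjd8 (r = 0.97), Pygl (0.96), Chpt1 (0.96), Cd151 (0.95) and Atp5b (0.94), with within-group r from 0.91 to 0.94. All points of one library share its depth and tissue makeup, and these values are descriptions.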

How the data were processed

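Poly-A RNA of 19 libraries was sequenced on a HiSeq2000 after TruSeq preparation, per the labels' protocols. The tools were bcl2fastq 1.8.4, TopHat2 2.1 and, for counting, HTSeq 0.6.1, on build mm9, per the submitters' processing notes; not given in the sources used here: strand setting and annotation. The authors deposited raw counts of reads per gene in whole numbers, plus 5 HTSeq summary lines, which were dropped.

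Counts were fitted with edgeR 4.0.16 (R 4.3.3; glmQLFit, glmQLFTest) over all 19 libraries as 4 group means, with TMM scaling and filterByExpr at a minimum count of 10. Calls are at a Benjamini-Hochberg adjusted p under 0.05 over 16015 genes. The SE is the log2 fold change over the square root of F, and 95% intervals use 15 degrees of freedom. Levels per kb use GENCODE exon lengths of a later build than mm9. The fit was tested on simulated data. Same-group libraries (37 pairs) had a chi-square of 6.77 or more per gene, so none looked like the same library deposited again, which does not show that they come from different animals.

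Alternatives were DESeq2 1.42.0 (test, and size factors in edgeR), limma 3.58.1 voom with quality weights, library size alone, no and stricter (50) count filters, sequencing lane in the model, fits of the compared groups only, and leaving out each library, the 5 tract-rich or 8 tract- or Cdh16-rich libraries. All members are named, and up to 4 called genes with the smallest p per list, of which 1 is not reported here. For likeness, the 5 genes of at least 1 CPM with the highest r were taken, passing over predicted names. Members and lists were chosen with earlier results of these data known, and list counts under alternatives were added after seeing the data.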

Additional observations from a re-analysis of the deposited data

Results flagged for a closer look

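Of 40 sets of a member's levels in a group, 2 had 1 library far from the rest, and chance alone marks about 1 in 20. Pdk2 in Ensure fasted 5 stood at 155.1 CPM, against 109.2 to 121.8 CPM in the other 4 libraries. That library also had the highest epididymis and testis marker sum (9640 CPM). Pdhb in Ensure fed 9 stood at 145.9 CPM, against 119.5 to 128.4 CPM in the other 5. The part of either library's makeup in its value was not tested.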

How the results depend on the processing

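The fasting calls of Pdk4, Pdk2, Pdhb and Pdhx with Ensure held under all 21 alternatives run. Members called with HFD numbered 1 in edgeR, 2 with library size alone, with the stricter filter and without the 8 tract- or Cdh16-rich libraries, 4 in DESeq2, 5 in voom, 0 in the compared groups alone, and 0 to 1 with a library left out. With Ensure the count was 7, 8 in voom, 6 in the compared groups alone and 4 without the 8 libraries. It was 5 with lane as a term, with no count filter and without the 5 tract-rich libraries, and 5 to 6 with a library left out. The difference of responses had 0, and 1 in DESeq2 and voom. Between fed diets the count was 3, 8 in voom, 0 with lane as a term, 5 in the compared groups alone and 2 to 3 with a library left out. Between fasted diets it was 0, 1 with library size alone, 2 in DESeq2 and without the 5 or the 8 libraries, 6 in voom, and 0 to 3 with a library left out (3 without Ensure fasted 2, 1 without Ensure fasted 5 or HFD fasted 24).

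Some differences changed sign, and not all of them were near 0. In fasting with HFD, Pdk3 (-0.07) was 0.0821 in voom and -0.20 to 0.14 with a library left out. Pdk2 (0.52), which was not near 0, was -0.10 without the 8 libraries and 0.21 to 0.76 with a library left out. In fasting with Ensure, Pdha1 (-0.15) was 0.0754 in voom, 0.0225 with lane, 0.11 without the 5 and 0.0668 without the 8 libraries. In the difference of responses, Pdp1 (-0.04) was 0.12 in voom and -0.162 to 0.0416 with a library left out, Pdha1 (0.20) ran from -0.0470 to 0.257 with a library left out, and Dlat (-0.29) was 0.0498 without the 8 libraries. Between fed diets, Pdp2 (-0.03) was 0.0191 without the 5 libraries and -0.0579 to 0.0924 with a library left out. Between fasted diets, Pdk3 (0.14) was -0.27 in voom, -0.31 with lane and -0.0617 to 0.263 with a library left out, and Pdk2 (0.20) was -0.0328 to 0.514. The causes were not tested.

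Counts over all genes moved more: with HFD from 195 to 2974 in voom, 1 in the compared groups alone and 23 without HFD fed 25; with Ensure from 3255 to 760 with lane; between fed diets from 682 to 5441 in voom and 2 with lane; between fasted diets from 452 to 3418 in voom and 0 with lane, where library size alone moved the calls from 261 higher of 452 to 215 of 523. In DESeq2, of 21146 genes, 634 were called with HFD, 4507 with Ensure, 1540 between fed and 1343 between fasted diets. No paired analysis was possible because no 2 groups share a replicate number. Lane and diet cannot be told apart beyond Ensure fed 18. With Ensure, lane and feeding were largely the same split, with 4 of 6 fed libraries in lane 6 and 4 of 5 fasted in lane 5. Groups held 4 to 6 libraries, and counting error was small at 90 or more counts per member.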
